A study of Arabidopsis thaliana with 21 samples.

Results

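Phototropins are the plasma membrane blue light receptors of plants, and the 8 genes described here encode the 2 phototropins of Arabidopsis thaliana, PHOT1 and PHOT2, and the proteins that pass on their signal: NPH3 and RPT2 of the NPH3/RPT2-like (NRL) family and the 4 PHYTOCHROME KINASE SUBSTRATE proteins PKS1, PKS2, PKS3 and PKS4. They were chosen by name, with earlier results of these data known, as 8 of the 33655 features of a read count table from whole seedlings. All 8 had enough reads to be tested in every comparison. The study asked how phytochrome B (phyB), the main red light receptor, works with SPA1, a partner and kinase of the COP1 ubiquitin ligase. RNA was sequenced from 7 groups of 3 libraries, 21 in all, of 3-day-old seedlings in the Col-0 background. After induction of germination every seed lot received far-red light of 10 µmol per square metre per second and then stayed in darkness, and red seedlings received 1 h of red light before harvest, given as 8 µmol per square metre per second in the labels and as a lower fluence in the methods. The groups under red light were spaQ (the spa1 spa2 spa3 spa4 quadruple mutant), cop1-4 (a weak COP1 allele) and wild type Col-0. The other 4 groups were 2 transgenic genotypes, called lines here, in the phyA-211 phyB-9 double mutant, both red and dark. One line carried GFP-tagged phyB that lacks the end of its C-terminal domain (phyB-GFP ΔC, here the ΔC line) and one carried the full-length protein (phyB-GFP FL, the FL line). Both lines therefore lack native phyA and phyB. Whether each stands for 1 or more independent transformants in these libraries is not stated, and the promoter of the transgene is not given in the sources used here. Dark libraries of spaQ, cop1-4 and Col-0 were not analysed here, so no response of those genotypes to red light could be measured.

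In seedlings, phototropins absorb blue light through flavin-binding domains and phosphorylate themselves and other proteins, and they drive the bending of the hypocotyl toward light, chloroplast movement, stomatal opening and leaf flattening. PHOT1 works over a broad range of light and PHOT2 mainly in bright light. NPH3 is a BTB domain protein that acts with a CUL3 ubiquitin ligase and is needed for bending, RPT2 is its relative needed in brighter light, and the PKS proteins bind phototropins, NPH3 and phytochromes. The methods name white light to induce germination, and no blue light after that step. The values below are thus transcript levels of the blue light pathway in seedlings kept dark after far-red light, with red light before harvest in the red groups only.

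The genes lie on 4 chromosomes of the TAIR10 assembly: PHOT1 (AT3G45780) at chr3:16816721-16824210, PHOT2 (AT5G58140) at chr5:23523825-23533111, NPH3 (AT5G64330) at chr5:25727126-25730358, RPT2 (AT2G30520) at chr2:13002686-13005746, PKS1 (AT2G02950) at chr2:854077-856725, PKS2 (AT1G14280) at chr1:4877506-4879307, PKS3 (AT1G18810) at chr1:6485515-6487153 and PKS4 (AT5G04190) at chr5:1150886-1152627. RPT2, PKS1 and PKS3 are on the minus strand and the others on the plus strand. The 300 bases before the annotated start were read from the RefSeq TAIR10.1 genome for 3 motifs of light-regulated promoters, on both strands: the G-box CACGTG, which is found in 7.09% of 27443 promoters of this length, the PBE-box CACATG, in 13.1%, and the I-box GATAAG, in 14.5%. The promoters of 4 genes are shown, those of RPT2 and PKS1, whose transcripts differed most after red light in the phyB-GFP lines, of PHOT1, which was lower after red light, and of PKS3, which was higher in spaQ and cop1-4. They are written 5′ to 3′ on the strand of the gene, ending 1 base before the start, with motif matches in capitals. RPT2 is chr2:13005747-13006046 (minus strand), PKS1 is chr2:856726-857025 (minus strand), PHOT1 is chr3:16816421-16816720 (plus strand) and PKS3 is chr1:6487154-6487453 (minus strand).
RPT2: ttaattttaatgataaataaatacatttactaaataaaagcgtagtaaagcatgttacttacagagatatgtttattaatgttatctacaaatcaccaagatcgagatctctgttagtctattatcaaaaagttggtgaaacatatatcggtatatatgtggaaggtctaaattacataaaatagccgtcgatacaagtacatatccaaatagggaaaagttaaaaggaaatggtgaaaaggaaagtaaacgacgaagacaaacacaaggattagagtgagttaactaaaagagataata
PKS1: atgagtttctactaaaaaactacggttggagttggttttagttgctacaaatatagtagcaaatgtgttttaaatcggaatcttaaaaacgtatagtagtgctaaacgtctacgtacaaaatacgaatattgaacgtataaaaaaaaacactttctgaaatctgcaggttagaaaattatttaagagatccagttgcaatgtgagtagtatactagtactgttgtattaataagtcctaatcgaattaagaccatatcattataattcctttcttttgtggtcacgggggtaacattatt
PHOT1: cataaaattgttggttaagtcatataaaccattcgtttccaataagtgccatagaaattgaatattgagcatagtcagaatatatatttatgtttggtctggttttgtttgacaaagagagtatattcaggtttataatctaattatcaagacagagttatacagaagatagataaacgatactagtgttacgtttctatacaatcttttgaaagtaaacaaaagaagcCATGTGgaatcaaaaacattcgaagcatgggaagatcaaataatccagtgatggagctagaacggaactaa
PKS3: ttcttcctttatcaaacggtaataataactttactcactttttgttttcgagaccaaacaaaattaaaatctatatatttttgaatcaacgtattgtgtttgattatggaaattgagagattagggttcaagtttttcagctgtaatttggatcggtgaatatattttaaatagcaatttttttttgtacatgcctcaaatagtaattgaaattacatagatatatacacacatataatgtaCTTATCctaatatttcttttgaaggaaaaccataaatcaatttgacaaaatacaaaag
None of the 3 motifs was found in the windows of RPT2 and PKS1. PHOT1 had 1 PBE-box, on the opposite strand, 71 to 66 bases before the start, and PKS3 had 1 I-box, also on the opposite strand, 58 to 53 bases before it. Of the promoters not shown, that of PKS2 held 1 I-box 279 to 274 bases before the start, and those of PHOT2, NPH3 and PKS4 held none of the 3. A match is a run of letters and not a site shown to be bound.

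The libraries held 15678019 to 29523833 counted reads. Replicates were named by number, whether they came from separate cultures was not stated, and p-values therefore measure the spread between these samples. Replicate 3 of the FL line under red light stood apart from the other 2. Its chi-square per gene to them was 19.2 and 30.7, against 4.5 between those 2. Several of the results that use this replicate, though not all, are also given without it. Against Col-0 the targeted genes differed in the direction of the labels. SPA1 had 43.6 CPM (read counts scaled to a common library size) in spaQ against 339 CPM in Col-0. COP1 had 41.5 CPM in cop1-4 against 74.5 CPM in Col-0. In the group means of the phyB-GFP lines PHYB had 1131 to 1307 CPM against 145 CPM in Col-0, and PHYA 33.2 to 71.7 CPM against 667 CPM. SPA1 and COP1 do not single out the mutants among the 7 groups. In the group means of the lines SPA1 had 29.6 to 166 CPM and COP1 33.4 to 49.8 CPM. Every gene of the root, stomatal and green cotyledon marker lists had more than 3 reads in every library. The 6 root markers summed to 184 to 210 CPM in spaQ and 166 to 194 CPM in cop1-4, against 156 to 158 CPM in Col-0. They summed to 136 to 165 CPM in the phyB-GFP lines. SHR alone of the 6 had a lower mean in the mutants, at 19.3 CPM in spaQ and 21.6 CPM in cop1-4 against 36.9 CPM in Col-0. The summed level of the 4 green cotyledon markers was 27837 to 29726 CPM in spaQ, 31159 to 35334 CPM in cop1-4 and 5515 to 11158 CPM in the phyB-GFP lines, against 8503 to 9213 CPM in Col-0. The 5 seed reserve genes summed to 1154 to 2105 CPM in spaQ, 2.17 to 138 CPM in cop1-4 and 2.6 to 749 CPM in the phyB-GFP lines, against 194 to 389 CPM in Col-0. The green cotyledon sums were thus higher in both mutants, and the seed reserve sums were higher in spaQ and lower in cop1-4. SESA1 alone of the 5 seed reserve genes went the other way in spaQ, with a mean of 2.65 CPM against 8.72 CPM in Col-0. Over the phyB-GFP lines together both ranges overlapped that of Col-0, but not in every group. The seed reserve sum was 2.6 to 54.8 CPM in ΔC red, below Col-0 and below every other group of the lines. It was 60.9 to 398 CPM in ΔC dark, 258 to 749 CPM in FL red and 292 to 611 CPM in FL dark. The green cotyledon sums of ΔC dark (6725 to 8181 CPM) and FL dark (5515 to 7877 CPM) lay below Col-0. The part of these levels in the results was not tested. In whole seedlings fewer cells of a type and less RNA per cell cannot be told apart.

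**Figure D1:**
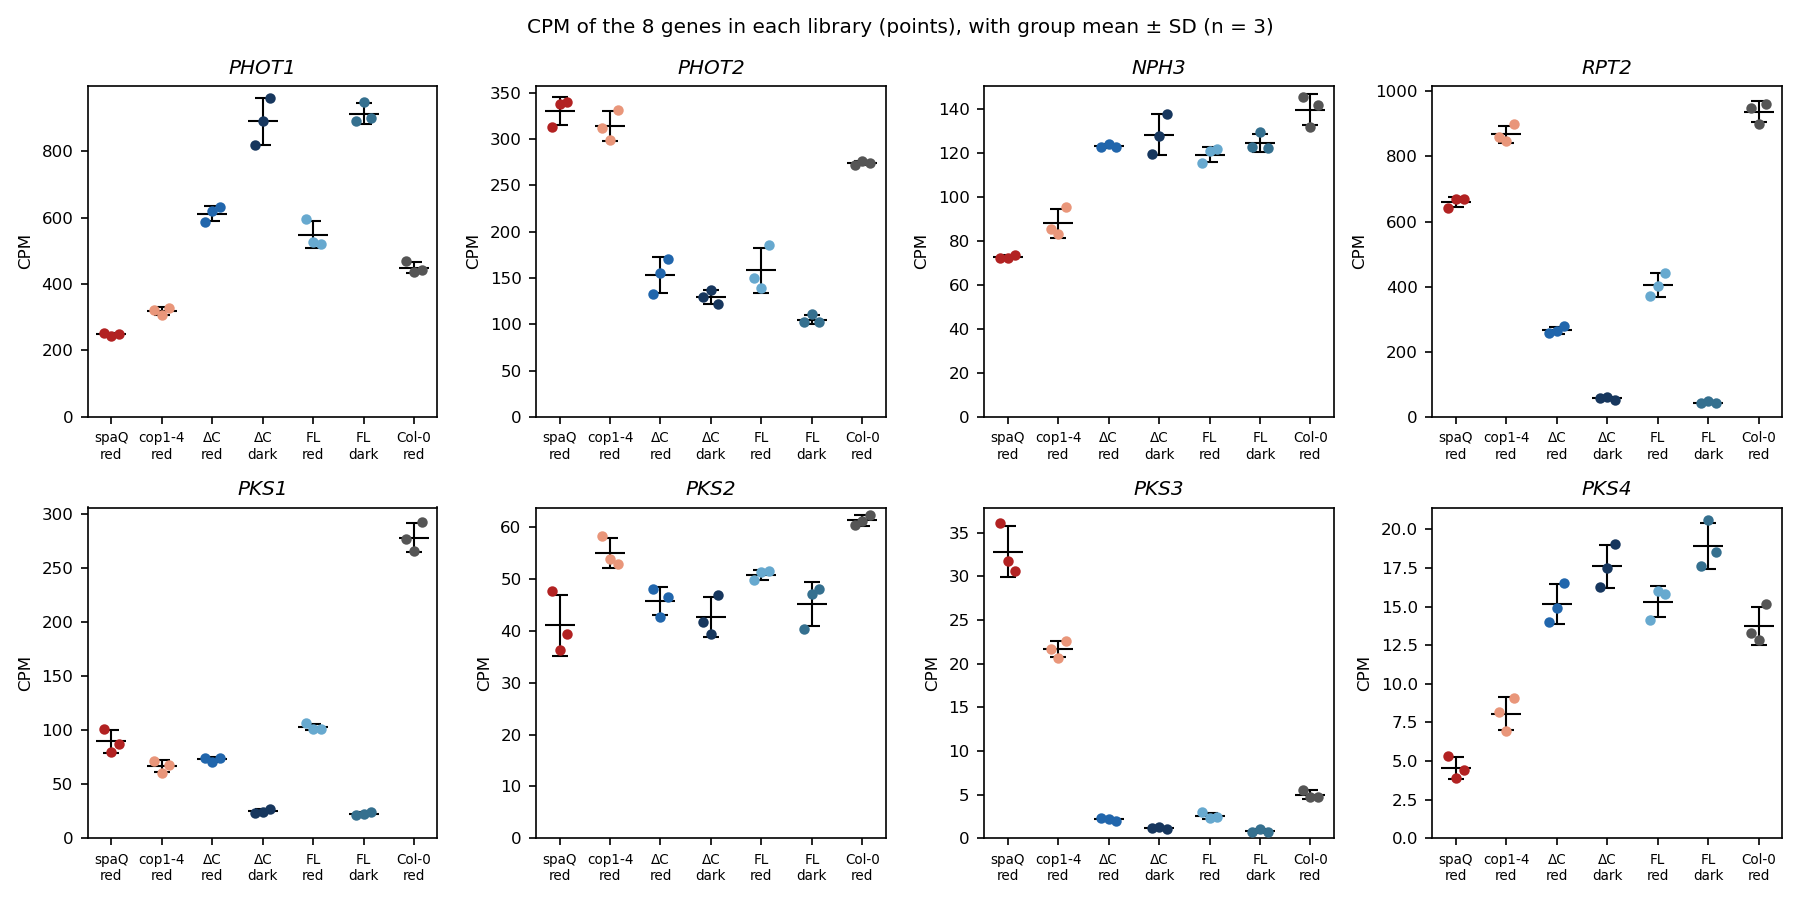
Level of each of the 8 genes in CPM (y axis, from 0, scaled over all 21 libraries) in the 7 groups (x axis), with 1 point per library and bars for the group mean ± SD of 3 libraries. RPT2 and PKS1 were highest in Col-0 red and lowest in the 2 dark groups, PKS3 stood high in spaQ and cop1-4 alone, and NPH3 and PKS2 kept within a narrow range.

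Across the 7 groups the 8 genes differed greatly in how much their level moved. Levels set across all groups are CPM scaled over the 21 libraries, whereas values beside a test are scaled over the libraries of that test, so that a library has more than 1 CPM value. The ratio of the highest to the lowest group mean was 39.0 for PKS3, 21.3 for RPT2 and 12.2 for PKS1. For PKS4, PHOT1 and PHOT2 it was 4.17, 3.67 and 3.14, and for NPH3 and PKS2 it was 1.92 and 1.49. The coefficient of variation within a group had a median of 6.75% over the genes and groups and reached 28.3% for PKS3 in the dark FL line, where 13 to 26 reads were counted. These spreads are the yardstick for every order of groups given below.

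The number of the 8 genes that differed was read against the share of all genes that did so. Since the 8 were chosen with earlier results of these data known, a count above that share describes them and is not a test. A gene is said to have passed the test where the edgeR adjusted p was under 0.05, and to have been called where the change was also over 2-fold (spaQ, cop1-4 and the lines against Col-0) or over 1.5-fold (within the phyB-GFP lines). In spaQ against Col-0 all 8 passed and 3 were called, against 79.4% and 32.5% of 20396 genes. PKS3 alone was called higher (15% of all genes) and PKS1 and PKS4 lower (17.5%), and of the 8 that passed 2 were higher (40.2%) and 6 lower (39.2%). In cop1-4 against Col-0 all 8 passed and 2 were called, against 72.9% and 23.8%. PKS3 was called higher (10.7%) and PKS1 lower (13.1%), and again 2 that passed were higher (36.4%) and 6 lower (36.6%). By the totals passed and called neither mutant stood out from a transcriptome in which most genes differed. A larger part of the 8 than of all genes was lower past the test in both mutants. The median log2 fold change of the 8 was -0.71 in spaQ and -0.33 in cop1-4, against 0.01 and 0.00 for all genes tested. Between spaQ and cop1-4, 7 passed and 0 were called, against 52.8% and 8.52% (2.88% higher and 5.63% lower). That count of 0 comes from edgeR, DESeq2 also called 0, and 7 had an unadjusted p under 0.05, 2 of those that passed being higher (26.7%) and 5 lower (26.1%).

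Red light moved few genes in the phyB-GFP lines, and many of the 8 were among them. The ΔC line had 4 of the 8 past the test and 3 called, against 5.16% and 2.88% of 20459 genes. All 3 called were higher (1.59%, and 1.3% lower), and of the 4 that passed 3 were higher (2.89%) and 1 lower (2.27%). The FL line had 6 past the test and 4 called, against 8.92% and 5%. RPT2, PKS1 and PKS3 were called higher (3.28%) and PHOT1 lower (1.72%), and of the 6 that passed 4 were higher (5.28%) and 2 lower (3.64%).

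Fewer of the 8 differed between the lines. In darkness 0 passed and 0 were called by edgeR, against 1.88% (0.802% higher and 1.08% lower) and 1.19% (0.587% higher and 0.601% lower), while 2 had an unadjusted p under 0.05 and DESeq2 called 0 and passed 1. Under red light 2 passed, both lower in the ΔC line, and 1 of them was called, against 2.93% (1.11% higher and 1.81% lower) and 1.67% (0.596% higher and 1.08% lower). The difference between the lines in their response to red light passed for 2 of the 8, RPT2 and PKS1, against 21 genes of 20459 or 0.103%, all 21 with a negative difference (ΔC response minus FL response).

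**Figure D2:**
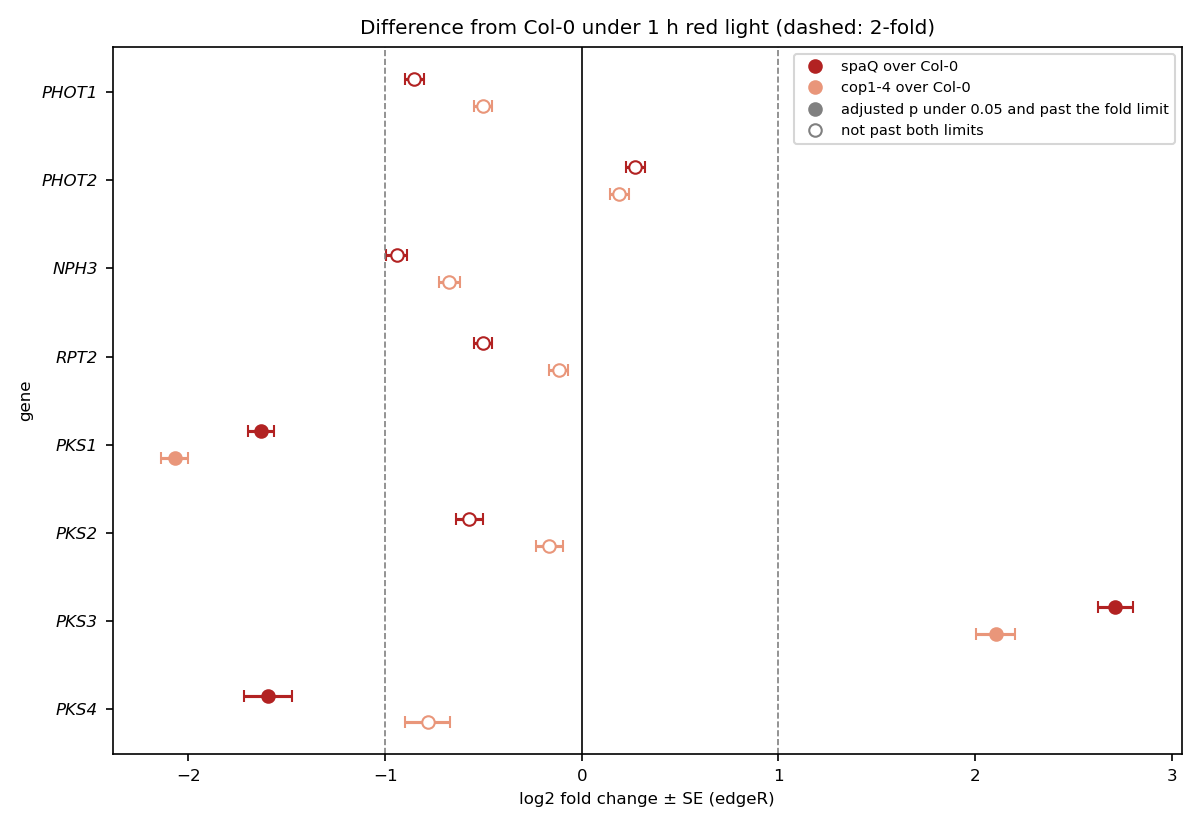
The log2 fold change of each gene (rows) in spaQ and in cop1-4 over Col-0, all under red light (x axis, point ± SE from edgeR), with filled points for genes past an adjusted p of 0.05 and 2-fold (dashed lines). PKS3 lies at 2.71 in spaQ and 2.10 in cop1-4 and PKS1 at -1.63 and -2.07, whereas PHOT2 lies at 0.27 and 0.19.

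PHOT1, the phototropin for dim and bright light, was lower in both mutants. It had 231, 224 and 229 CPM in spaQ, 295, 279 and 297 CPM in cop1-4 and 430, 397 and 407 CPM in Col-0. The 3 groups did not overlap, with spaQ lowest and Col-0 highest. PHOT1 fell by 0.85 (SE 0.048) on the log2 scale in spaQ (edgeR, adjusted p = 9.1e-15) and by 0.50 (SE 0.047) in cop1-4 (edgeR, adjusted p = 5.42e-10), neither past 2-fold. It was lower by 0.35 (SE 0.048) in spaQ than in cop1-4 (edgeR, adjusted p = 1.03e-06).

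PHOT2, the phototropin of chloroplast avoidance in bright light, moved the other way and by little. It had 287, 310 and 312 CPM in spaQ, 286, 273 and 301 CPM in cop1-4 and 249, 252 and 252 CPM in Col-0. Both mutants lay above Col-0 and overlapped each other. PHOT2 differed by a log2 fold change of 0.27 (SE 0.049) in spaQ (edgeR, adjusted p = 1.72e-05) and 0.19 (SE 0.049) in cop1-4 (edgeR, adjusted p = 0.00118). Neither value held in every fit. With library size as the only scaling PHOT2 no longer passed in either mutant, at 0.02 in spaQ (edgeR, adjusted p = 0.655) and -0.01 in cop1-4 (edgeR, adjusted p = 0.882), where the median of all genes lay at -0.24 in spaQ and -0.20 in cop1-4. In one edgeR fit of all 21 libraries the adjusted p in cop1-4 was 0.0607. Between spaQ and cop1-4 the difference was 0.08 (SE 0.049, edgeR, adjusted p = 0.172), and without spaQ replicate 1 the adjusted p was 0.0323.

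After 1 h of red light PHOT1 was lower in both phyB-GFP lines. PHOT1 in the ΔC line had 627, 655 and 670 CPM under red light against 879, 952 and 1028 CPM in darkness. PHOT1 in the FL line had 632, 563 and 553 CPM under red light against 956, 1019 and 979 CPM in darkness. No red library reached any dark library of its line. PHOT1 fell by 0.55 (SE 0.079) in the ΔC line (edgeR, adjusted p = 0.000541), short of 1.5-fold, and by 0.76 (SE 0.079) in the FL line (edgeR, adjusted p = 1.78e-05). Without replicate 3 the fall in the FL line was 0.72 (edgeR, adjusted p = 3.57e-05). The difference between the 2 responses was 0.21 (SE 0.111) and did not pass the test (edgeR, adjusted p = 0.999).

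PHOT2 rose in the FL line under red light. PHOT2 in the ΔC line had 142, 165 and 182 CPM under red light against 139, 147 and 130 CPM in darkness, and the 2 conditions overlapped. PHOT2 in the FL line had 158, 149 and 197 CPM under red light against 110, 119 and 111 CPM in darkness, without overlap and with replicate 3 highest. The log2 fold change was 0.23 (SE 0.107) in the ΔC line (edgeR, adjusted p = 0.379) and 0.57 (SE 0.108) in the FL line (edgeR, adjusted p = 0.00322), or 0.44 (SE 0.091, edgeR, adjusted p = 0.00612) without replicate 3. The responses of the 2 lines were not shown to differ: the difference was -0.34 (SE 0.152, edgeR, adjusted p = 0.999).

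Taken as a pair, PHOT1 and PHOT2 ran in opposite orders across the groups by their means. PHOT1 ran in the order FL dark, ΔC dark, ΔC red, FL red, Col-0, cop1-4 and spaQ, at 913, 889, 612, 549, 449, 318 and 249 CPM, with overlap between FL dark and ΔC dark and between ΔC red and FL red. PHOT2 ran in the order spaQ, cop1-4, Col-0, FL red, ΔC red, ΔC dark and FL dark, at 330, 314, 274, 158, 153, 130 and 105 CPM. Its neighbours overlapped between spaQ and cop1-4, between FL red and ΔC red and between ΔC red and ΔC dark. The ratio of PHOT1 to PHOT2 reads, which needs no scaling between libraries, was 0.75 ± 0.046 in spaQ and 1.01 ± 0.022 in cop1-4 against 1.64 ± 0.076 in Col-0 (SD, n = 3 each). It was 4.03 ± 0.37 under red light against 6.89 ± 0.86 in darkness in the ΔC line, and 3.52 ± 0.63 under red light against 8.69 ± 0.12 in darkness in the FL line. Levels of the 2 genes can be compared only per length, as RPKM, the read count scaled to gene length and library size. On the exon length of the annotation PHOT1 made up 59.5% ± 1.4 of the summed phototropin RPKM in spaQ and 66.4% ± 0.49 in cop1-4 against 76.2% ± 0.83 in Col-0, and 94.4% ± 0.073 in the dark FL line (SD, n = 3 each). The PHOT2 exons run over 7121 bases, of which 2760 lie opposite the gene AT5G58150, against 3646 bases for PHOT1. On coding length, a choice made after this was seen, the share of PHOT1 was 41.2% ± 1.4 in spaQ and 48.5% ± 0.55 in cop1-4 against 60.4% ± 1.1 in Col-0, and 89.0% ± 0.14 in the dark FL line, so PHOT2 was the larger of the 2 in spaQ and cop1-4 on this length only. AT5G58150 was listed at 0 reads in all 21 libraries, and how reads from the shared stretch were assigned was not stated.

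**Figure D3:**
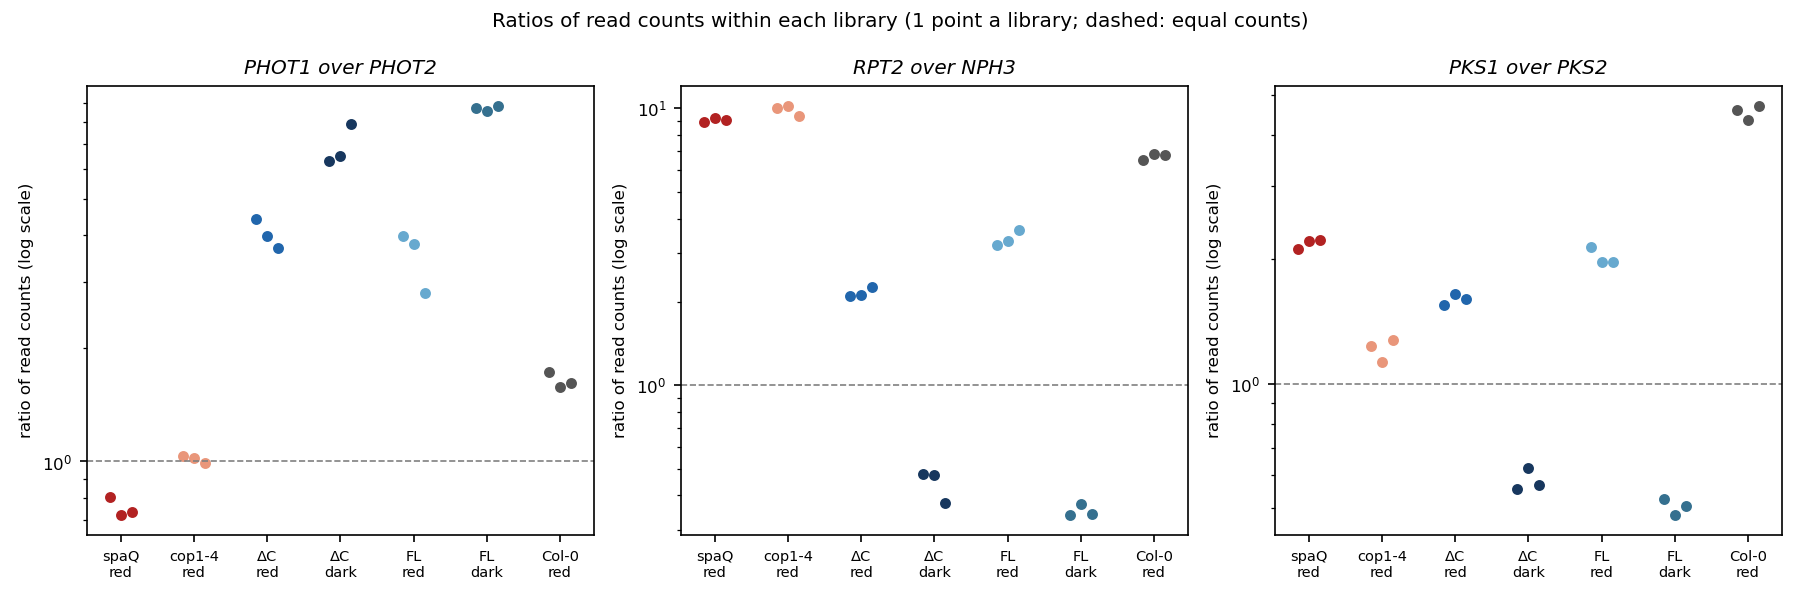
Ratios of read counts within each library (y axis, log scale, 1 point a library) for PHOT1 over PHOT2, RPT2 over NPH3 and PKS1 over PKS2 in the 7 groups (x axis), with a dashed line at equal counts. RPT2 lay below NPH3 only in the 2 dark groups, and PHOT1 lay below PHOT2 in all 3 spaQ libraries and in 1 cop1-4 library.

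NPH3, the phototropin-binding adaptor of hypocotyl bending, was lower in both mutants and did not respond to red light in either line at this depth. It had 66.1, 66.4 and 67.7 CPM in spaQ, 78.3, 76.0 and 86.7 CPM in cop1-4 and 133, 120 and 131 CPM in Col-0. Every mutant library lay below every Col-0 library and every spaQ library below every cop1-4 library. NPH3 fell by 0.94 (SE 0.053) in spaQ (edgeR, adjusted p = 1.08e-14) and by 0.67 (SE 0.053) in cop1-4 (edgeR, adjusted p = 1.59e-11), and it was lower by 0.27 (SE 0.055) in spaQ than in cop1-4 (edgeR, adjusted p = 0.000231). With library size as the only scaling, NPH3 and PHOT1 went past 2-fold in spaQ, which took the genes called there to 5. NPH3 shares 24 exon bases with SAC51 (AT5G64340) on the opposite strand, and strand use in counting was not stated.

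In the phyB-GFP lines NPH3 had 132, 131 and 130 CPM under red light against 128, 137 and 148 CPM in darkness in the ΔC line, and 122, 129 and 129 CPM under red light against 132, 139 and 133 CPM in darkness in the FL line. NPH3 had a log2 fold change of -0.07 (SE 0.064) in the ΔC line (edgeR, adjusted p = 0.777) and -0.09 (SE 0.064) in the FL line (edgeR, adjusted p = 0.556). By group mean NPH3 ran from 140 CPM in Col-0 through 119 to 129 CPM in the 4 phyB-GFP groups to 88.1 CPM in cop1-4 and 72.7 CPM in spaQ. In this order Col-0 overlapped ΔC dark, ΔC dark overlapped FL dark and FL dark overlapped ΔC red, and no other neighbours overlapped.

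RPT2 had the largest response to red light of the 8 genes in both lines. In the ΔC line it had 276, 278 and 295 CPM under red light against 61.5, 64.7 and 55.4 CPM in darkness. In the FL line it had 392, 428 and 469 CPM under red light against 44.9, 51.7 and 45.6 CPM in darkness. Under red light every ΔC library lay below every FL library, and in darkness every ΔC library lay above every FL library. RPT2 rose 4.67-fold in the ΔC line (log2 fold change 2.22, SE 0.089, edgeR, adjusted p = 2.21e-09) and 9.07-fold in the FL line (3.18, SE 0.093, edgeR, adjusted p = 5.47e-11), or 3.11 on the log2 scale without replicate 3.

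The response of RPT2 to red light was smaller in the ΔC line by 0.96 (SE 0.121) on the log2 scale, which passed the test of the difference (edgeR, adjusted p = 0.00741). Over 19 alternatives this difference ran between -1.02 and -0.89 with an adjusted p of at most 0.0495, and without replicate 3 of FL red it was -0.89 (edgeR, adjusted p = 0.00315). Under red light RPT2 was lower in the ΔC line by 0.60 (SE 0.084, edgeR, adjusted p = 0.00173). That change lay at the 1.5-fold limit: without FL red replicate 3 it was -0.54 and without ΔC red replicate 1 it was -0.58, both with an adjusted p under 0.05 (edgeR) and short of the limit. In darkness RPT2 was 0.35 (SE 0.087) higher in the ΔC line, with an adjusted p of 0.0602 from edgeR, 0.00575 from DESeq2 and, in edgeR without FL red replicate 3, 0.0207.

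RPT2 was lower in spaQ and close to wild type in cop1-4. It had 588, 614 and 617 CPM in spaQ, 786, 773 and 817 CPM in cop1-4 and 871, 821 and 884 CPM in Col-0, with no overlap between groups. RPT2 fell by 0.50 (SE 0.048) in spaQ (edgeR, adjusted p = 4.75e-10). In cop1-4 the log2 fold change was -0.12 (SE 0.048, edgeR, adjusted p = 0.0309), and without Col-0 replicate 1 or 3 or cop1-4 replicate 1 or 2 the adjusted p was 0.0843 to 0.123. RPT2 was lower in spaQ than in cop1-4 by 0.38 (SE 0.048, edgeR, adjusted p = 2.18e-07).

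Over all groups RPT2 ran at 937 CPM in Col-0, 868 in cop1-4, 661 in spaQ, 405 in FL red, 266 in ΔC red, 56.5 in ΔC dark and 43.9 in FL dark, and no 2 neighbours in this order overlapped. The ratio of RPT2 to NPH3 reads was 9.08 ± 0.18 in spaQ and 9.87 ± 0.40 in cop1-4 against 6.71 ± 0.16 in Col-0 (SD, n = 3 each). It was 2.16 ± 0.091 under red light against 0.44 ± 0.058 in darkness in the ΔC line, and 3.39 ± 0.22 under red light against 0.35 ± 0.017 in darkness in the FL line. Per exon length RPT2 made up 91.6% ± 0.15 of the summed RPKM of the pair in spaQ against 88.9% ± 0.23 in Col-0, and 80.2% ± 1.0 under red light against 29.6% ± 1.0 in darkness in the FL line. NPH3 was thus the larger of the pair in darkness and RPT2 under red light.

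**Figure D4:**
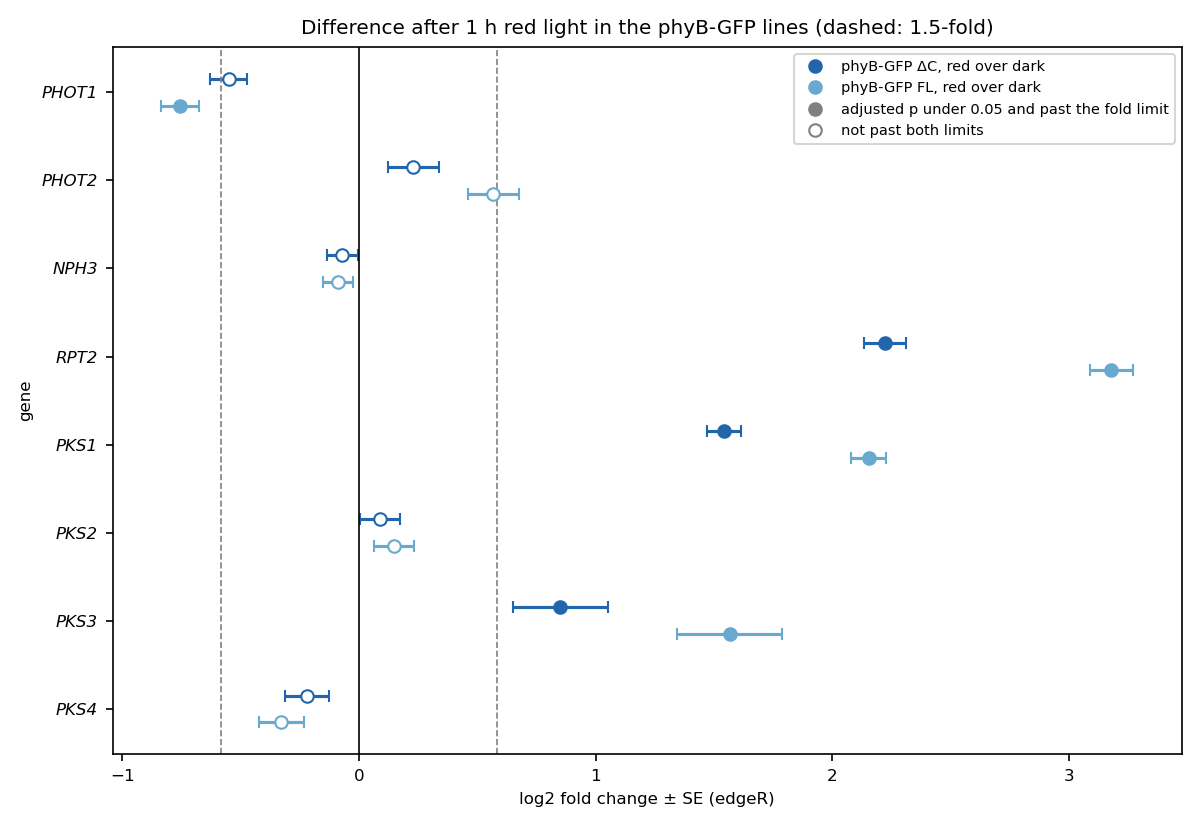
The log2 fold change of each gene (rows) after 1 h of red light over darkness in the ΔC and the FL line (x axis, point ± SE from edgeR), with filled points for genes past an adjusted p of 0.05 and 1.5-fold (dashed lines). RPT2 lies at 2.22 in the ΔC line and 3.18 in the FL line and PKS1 at 1.54 and 2.16, and those 2 alone passed the test of a difference between the lines.

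PKS1, first described as a protein that phytochrome phosphorylates, was the PKS gene that responded most to red light. PKS1 in the ΔC line had 79.8, 74.3 and 79.0 CPM under red light against 24.9, 26.5 and 28.6 CPM in darkness. PKS1 in the FL line had 113, 108 and 108 CPM under red light against 22.7, 24.4 and 26.5 CPM in darkness. The dark libraries of the 2 lines overlapped and the red libraries did not. PKS1 rose 2.92-fold in the ΔC line (log2 fold change 1.54, SE 0.072, edgeR, adjusted p = 1.17e-08) and 4.46-fold in the FL line (2.16, SE 0.074, edgeR, adjusted p = 3.23e-10).

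The response of PKS1 was smaller in the ΔC line by 0.61 (SE 0.101), with an adjusted p of 0.0446 in edgeR and 0.000101 in DESeq2. The value held at -0.67 to -0.56 over all alternatives, but the call rested on all libraries being used: leaving out any 1 library other than FL red replicates 2 and 3 gave an adjusted p of 0.0518 to 0.189. Under red light PKS1 was lower in the ΔC line by 0.49 (SE 0.069, edgeR, adjusted p = 0.00176), and in darkness the difference was 0.12 (SE 0.074, edgeR, adjusted p = 0.518).

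PKS1 was also strongly lower in both mutants. It had 92.4, 73.6 and 80.4 CPM in spaQ, 65.7, 55.3 and 61.2 CPM in cop1-4 and 253, 242 and 269 CPM in Col-0. Both mutants lay far below Col-0, and cop1-4 lay below spaQ without overlap. PKS1 was 3.10-fold lower in spaQ (log2 fold change -1.63, SE 0.066, edgeR, adjusted p = 8.58e-18) and 4.20-fold lower in cop1-4 (-2.07, SE 0.069, edgeR, adjusted p = 2.01e-19). It was higher in spaQ than in cop1-4 by 0.44 (SE 0.071, edgeR, adjusted p = 1.05e-05). A lncRNA on the opposite strand, AT2G04465, shares 189 exon bases with PKS1 and had at most 1 read in any library.

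PKS3, the PKS gene named by its locus alone in the annotation, moved opposite to PKS1 in the mutants. It had 33.0, 29.1 and 28.2 CPM in spaQ, 19.9, 18.9 and 20.5 CPM in cop1-4 and 5.10, 4.34 and 4.33 CPM in Col-0. The 3 groups stood apart, spaQ highest. PKS3 was 6.56-fold higher in spaQ (log2 fold change 2.71, SE 0.091, edgeR, adjusted p = 1.54e-19) and 4.30-fold higher in cop1-4 (2.10, SE 0.098, edgeR, adjusted p = 2.73e-16), and higher in spaQ than in cop1-4 by 0.61 (SE 0.076, edgeR, adjusted p = 2.42e-07).

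In the phyB-GFP lines PKS3 was close to the bottom of the measurable range. PKS3 in the ΔC line had 2.48, 2.34 and 2.13 CPM under red light, from 39 to 58 reads, against 1.24, 1.44 and 1.13 CPM in darkness, from 26 to 43 reads. PKS3 in the FL line had 3.17, 2.48 and 2.55 CPM under red light against 0.77, 1.20 and 0.75 CPM in darkness. Red and dark libraries did not overlap in either line. The log2 fold change was 0.85 (SE 0.202) in the ΔC line (edgeR, adjusted p = 0.0231) and 1.57 (SE 0.223) in the FL line (edgeR, adjusted p = 0.000301). The call in the ΔC line was lost, with an adjusted p of 0.0529 to 0.0943, without ΔC dark replicate 1 or 3 or any of the 3 ΔC red libraries. The difference between the responses, -0.71 with an SE of 0.304, did not pass (edgeR, adjusted p = 0.999).

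PKS4, which phototropin phosphorylates and which limits bending in bright light, was lower in both mutants. It had 4.85, 3.56 and 4.07 CPM in spaQ, 7.46, 6.36 and 8.25 CPM in cop1-4 and 12.2, 11.7 and 13.9 CPM in Col-0. The 3 groups did not overlap. PKS4 was 3.02-fold lower in spaQ (log2 fold change -1.59, SE 0.122, edgeR, adjusted p = 6.69e-12) and fell by 0.78 (SE 0.115) in cop1-4 (edgeR, adjusted p = 1.2e-06), and it was lower by 0.81 (SE 0.139) in spaQ than in cop1-4 (edgeR, adjusted p = 2.31e-05). In the lines it had 15.0, 15.8 and 17.6 CPM under red light against 17.5, 18.7 and 20.4 CPM in darkness (ΔC), and 15.0, 17.1 and 16.7 CPM under red light against 18.9, 22.1 and 20.2 CPM in darkness (FL). PKS4 had a log2 fold change of -0.22 (SE 0.093) in the ΔC line (edgeR, adjusted p = 0.287) and -0.33 (SE 0.095) in the FL line (edgeR, adjusted p = 0.0468). The value in the FL line was at the limit, and leaving out 1 of 7 libraries (FL dark 2 or 3, FL red 1, 2 or 3, ΔC dark 2 or ΔC red 2) gave an adjusted p of 0.0553 to 0.188.

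PKS2, which takes part in leaf flattening, varied least of the 8. It had 43.5, 33.3 and 36.2 CPM in spaQ, 53.3, 49.1 and 48.0 CPM in cop1-4 and 55.3, 55.7 and 57.3 CPM in Col-0, with spaQ lowest and no overlap. PKS2 fell by 0.57 (SE 0.069) in spaQ (edgeR, adjusted p = 3.63e-08), and in cop1-4 the log2 fold change was -0.16 (SE 0.069, edgeR, adjusted p = 0.0349). The value in cop1-4 was at the limit, and leaving out any of the 3 Col-0 libraries or cop1-4 replicate 2 or 3 gave an adjusted p of 0.0555 to 0.142. In the lines PKS2 stayed between 42.2 and 54.7 CPM, and its log2 fold change after red light was 0.09 (SE 0.084) in the ΔC line (edgeR, adjusted p = 0.791) and 0.15 (SE 0.085) in the FL line (edgeR, adjusted p = 0.41).

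The makeup of the PKS transcripts therefore differed between groups. Per exon length PKS1 made up 42.7% ± 0.67 of the summed PKS RPKM in spaQ and 34.2% ± 1.1 in cop1-4 against 70.0% ± 0.55 in Col-0 (SD, n = 3 each). PKS3 made up 25.3% ± 1.3 in spaQ and 18% ± 0.80 in cop1-4 against 2.04% ± 0.22 in Col-0. The sum was 79.2 ± 9.2 RPKM in spaQ and 73.5 ± 4.0 RPKM in cop1-4 against 150 ± 6.1 RPKM in Col-0. In the FL line PKS2 made up 36.4% ± 0.83 under red light against 55.6% ± 1.1 in darkness, and PKS4 11.4% ± 0.79 against 24.2% ± 1.3. PKS1 made up 50.2% ± 1.3 under red light against 19.1% ± 0.81 in darkness there.

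**Figure D5:**
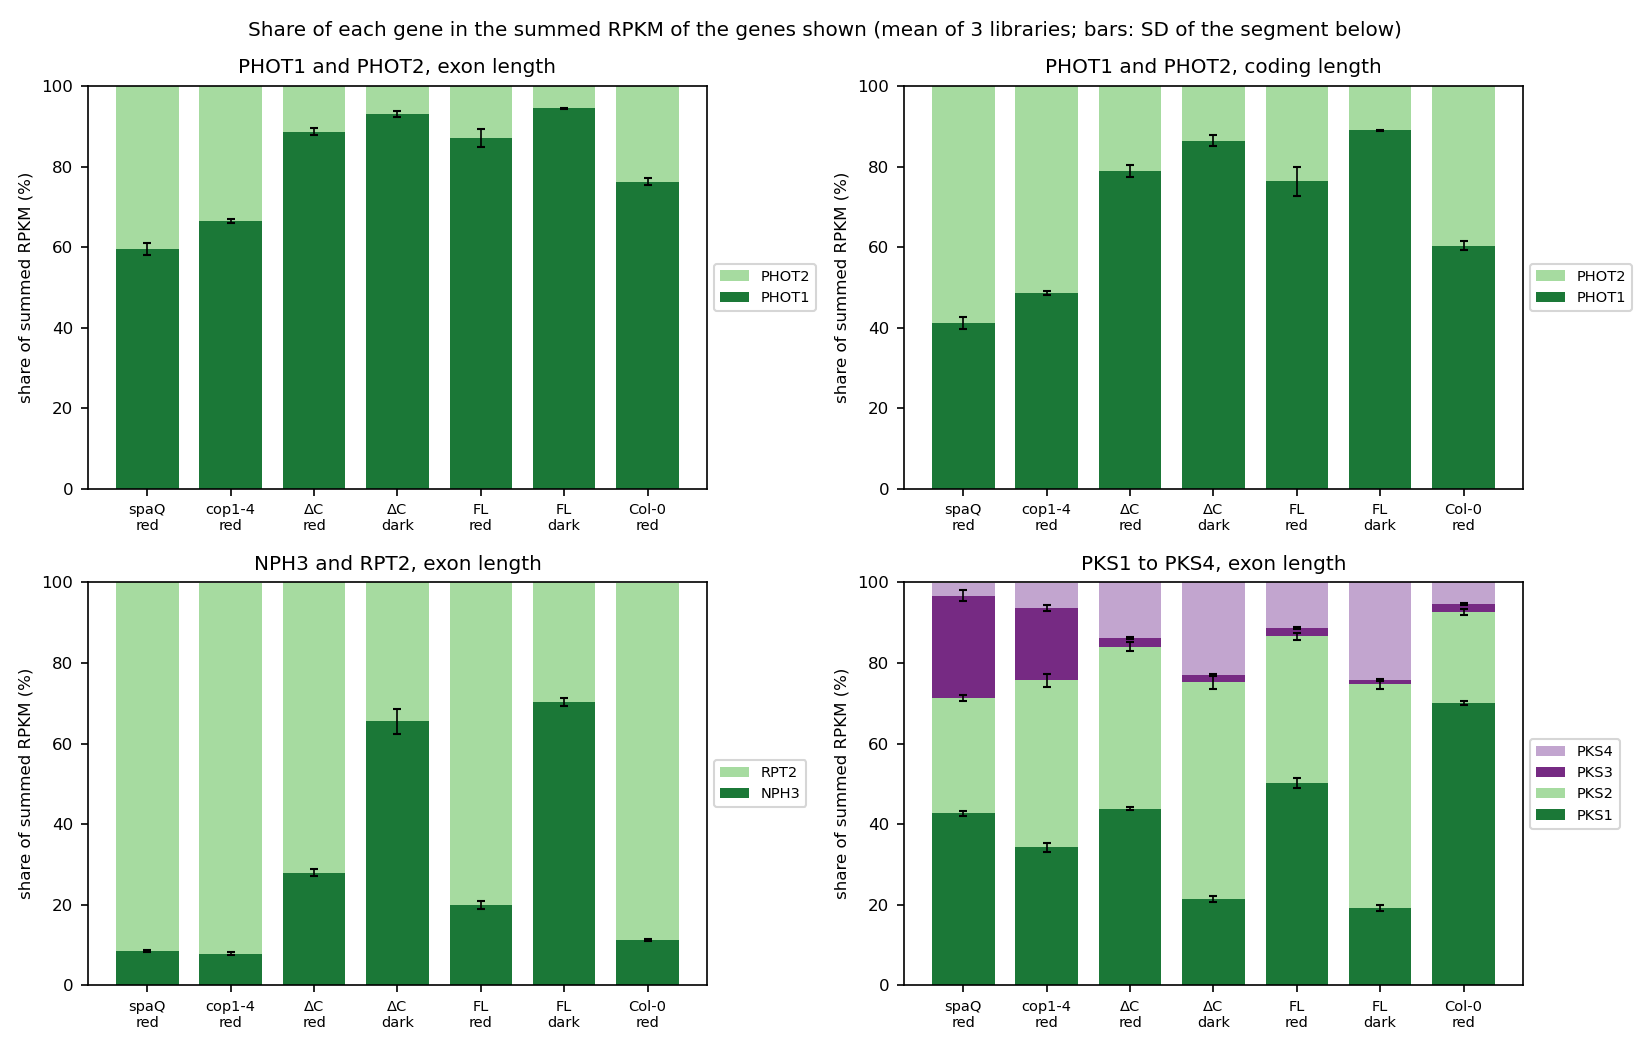
Share of each gene in the summed RPKM (y axis, percent, mean of 3 libraries, bars for the SD of the segment below) of PHOT1 and PHOT2 on exon and on coding length, of NPH3 and RPT2, and of PKS1 to PKS4, in the 7 groups (x axis). RPT2 fills 29.6% of its pair in FL dark and 80.2% in FL red, and PKS3 fills 25.3% of the PKS sum in spaQ against 2.04% in Col-0.

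Compared with Col-0 under the same red light, the phyB-GFP lines had less RPT2 and PKS1. For the ΔC line 7 of the 8 genes passed, 1 higher and 6 lower, and 3 were called, all lower, against 31.6% (15.8% higher and 15.9% lower) and 4.54% (1.12% higher and 3.42% lower) of 20949 genes. For the FL line 7 passed, 1 higher and 6 lower, and 2 were called, both lower, against 29.5% (15.1% higher and 14.4% lower) and 2.93% (0.936% higher and 1.99% lower). Both comparisons share the 3 Col-0 libraries, and the transgene, the phyA-211 and phyB-9 mutations and any difference in handling cannot be told apart in them. RPT2 had 258, 263 and 278 CPM in ΔC red and 371, 402 and 443 CPM in FL red against 950, 900 and 962 CPM in Col-0, with log2 fold changes of -1.82 (SE 0.076, edgeR, adjusted p = 4.74e-14) and -1.21 (SE 0.074, edgeR, adjusted p = 6.46e-11). PKS1 had 74.5, 70.2 and 74.3 CPM in ΔC red and 107, 101 and 102 CPM in FL red against 276, 266 and 292 CPM in Col-0, with log2 fold changes of -1.93 (SE 0.079, edgeR, adjusted p = 3.77e-14) and -1.43 (SE 0.078, edgeR, adjusted p = 9.65e-12). PKS3 was lower by 1.21 (SE 0.140) in the ΔC line (edgeR, adjusted p = 7.3e-07) and by 0.96 (SE 0.141) in the FL line (edgeR, adjusted p = 2.35e-05).

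The phototropins themselves parted in this comparison. PHOT1 was higher by 0.44 (SE 0.069) in the ΔC line (edgeR, adjusted p = 3.52e-05) and by 0.29 (SE 0.069) in the FL line (edgeR, adjusted p = 0.00306). PHOT2 fell by 0.84 (SE 0.092) in the ΔC line (edgeR, adjusted p = 3.05e-07) and by 0.79 (SE 0.092) in the FL line (edgeR, adjusted p = 1.14e-06). NPH3 lay at -0.18 (SE 0.061) in the ΔC line and -0.23 (SE 0.061) in the FL line, PKS2 at -0.42 (SE 0.085) and -0.27 (SE 0.085), and PKS4, which did not pass, at 0.14 (SE 0.104) and 0.15 (SE 0.106). NPH3 in the ΔC line did not pass without Col-0 replicate 1 or 3 or ΔC red replicate 2 or 3, with an edgeR adjusted p of 0.056 to 0.0925, and PKS2 in the FL line without Col-0 replicate 3, at 0.0506.

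Other transcripts followed the same patterns over the libraries. For each gene the 3 most alike were taken by Pearson correlation of log2 CPM over the 21 libraries among 13691 genes, which describes these points only, since the libraries share groups and depth. RPT2 was most like RVE1 (r = 0.995), a MYB-like factor tied to the clock, AT5G64170 (0.993) and BBX18 (0.989), a B-box protein. PKS1 was most like AT1G29640 (0.990), NUDX19 (0.987) and AIF1 (0.987), and PHOT1 like FP6 (0.990), HLS1 (0.988), a gene of the apical hook, and ARF18 (0.987). PHOT2 was most like PMI1 (0.993), which acts in chloroplast movement, ENODL2 (0.992) and AT1G52870 (0.990). NPH3 was most like SULTR3;1 (0.987), PIN3 (0.986), an auxin efflux carrier of hypocotyl bending, and AT3G44610 (0.984). PKS3 was most like AT3G57020 (0.994), ABA1 (0.991), an enzyme of xanthophyll synthesis, and CT-BMY (0.991), and PKS4 like CYCP4;1, EMB3135 and P1R3 (0.985 to 0.986). PKS2 had no close match: its first was SBH2 (0.908), whose gene lies 722 bases from PKS2, then AAPT2 (0.868) and AT4G16490 (0.851). Among the 8 genes, r was -0.97 for PHOT1 and PKS3, -0.94 for PHOT1 and PHOT2, 0.93 for NPH3 and PKS4 and 0.87 for RPT2 and PKS1.

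Of the 41 genes of the wider pathway, those of auxin transport and response were mostly lower past the test in the mutants. This list of 16 holds the carriers, their kinases and the response factors that turn a phototropin signal into bending. In spaQ 14 were lower and 1 higher past the test and 9 were called lower, against 39.2%, 40.2% and 17.5% of all genes, with a median log2 fold change of -1.25 against 0.01 for all genes tested. In cop1-4, 13 were lower and 1 higher and 7 were called lower, against 36.6%, 36.4% and 13.1% of all genes, with a median of -0.82 against 0.00. WAG1, a kinase acting on auxin carriers, had 1 to 6 reads in each spaQ library against 126 to 159 in Col-0. IAA19, an auxin response repressor, had 2.01 ± 0.21 CPM in spaQ and 3.61 ± 0.55 CPM in cop1-4 against 82.0 ± 5.8 CPM in Col-0 (SD, n = 3 each, log2 fold changes -5.35 and -4.50, edgeR, adjusted p = 4.08e-25 and 6.94e-24). WAG2, the paralogue of WAG1, had 1.45 ± 0.44 CPM in cop1-4 against 21.1 ± 1.4 CPM in Col-0 (-3.84, edgeR, adjusted p = 4.5e-18). Between spaQ and cop1-4, 2 of the 16 were called, against 8.52% of all genes, WAG1 (-3.27, edgeR, adjusted p = 1.59e-06) and WAG2 (-1.05, edgeR, adjusted p = 0.00277), both lower in spaQ.

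After red light 3 of the 16 auxin genes were called lower in each line, against 1.3% of all genes in the ΔC line and 1.72% in the FL line. In the ΔC line WAG1 had 8.75 ± 0.38 CPM under red light against 23.4 ± 4.4 CPM in darkness (-1.41, edgeR, adjusted p = 5.17e-06) and PID, a related kinase, 8.77 ± 0.33 CPM against 15.1 ± 1.3 CPM (-0.78, edgeR, adjusted p = 6e-04). In the FL line WAG1 had 12.9 ± 0.94 CPM under red light against 25.9 ± 1.6 CPM in darkness (-1.01, edgeR, adjusted p = 6.35e-05) and IAA19 had 103 ± 4.8 CPM against 202 ± 18 CPM (-0.97, edgeR, adjusted p = 1.06e-05). Without FL red replicate 3 the FL count was 2. The medians of the list were -0.11 in the ΔC line and -0.15 in the FL line, against -0.01 and 0.00 for all genes tested.

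The 8 chloroplast movement genes, whose products anchor and move chloroplasts downstream of phototropins, included some that rose after red light. In the ΔC line 2 were called, both higher, against 1.59% of all genes, with a median of 0.35, and in the FL line 5 were called, all higher, against 3.28%, with a median of 0.85. JAC1, a J-domain protein of chloroplast accumulation, had 23.6 ± 1.5 CPM under red light against 10.3 ± 0.37 CPM in darkness in the ΔC line (1.20, edgeR, adjusted p = 2.66e-06). In the FL line it had 31.5 ± 3.9 CPM under red light against 9.85 ± 0.61 CPM in darkness (1.68, edgeR, adjusted p = 5.96e-08). AT1G64500 had 42.4 ± 3.0 CPM under red light against 20.9 ± 3.1 CPM in darkness in the ΔC line (1.02, edgeR, adjusted p = 0.00097). In the FL line it had 69.6 ± 17 CPM under red light against 16.6 ± 2.3 CPM in darkness (2.06, edgeR, adjusted p = 1.16e-06). It was the only one called between the lines under red light, against 1.67% of all genes, lower by 0.71 in the ΔC line (edgeR, adjusted p = 0.023). Without FL red replicate 3 the value was -0.49 and short of 1.5-fold, so that 0 were called. The count of 5 in the FL line was the same without replicate 3. For the difference between the responses 0 of the 8 passed in edgeR, against 0.103% of all genes. Of the 8, 5 had an unadjusted p under 0.05, against 4.52% of all genes, and 2 were past the DESeq2 test, as were 80 of all genes.

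Against Col-0 the chloroplast movement genes called were lower in the lines and higher in the mutants. In ΔC red 5 of the 8 were called lower, against 3.42% of all genes, with a median of -1.15. In FL red 2 were called lower, or 3 without FL red replicate 3, against 1.99%, with a median of -0.80. AT1G64500 was lower by 1.83 in ΔC red (edgeR, adjusted p = 1.74e-10) and by 1.12 in FL red (edgeR, adjusted p = 5.33e-07), PMI2 was lower by 1.40 in ΔC red (edgeR, adjusted p = 6.04e-08), and PMI1 was lower by 1.01 in FL red (edgeR, adjusted p = 1.05e-06). In spaQ 6 were higher and 2 lower past the test and 2 were called higher, against 40.2%, 39.2% and 15% of all genes. CHUP1, which links chloroplasts to actin, had 557 ± 24 CPM in spaQ and 389 ± 18 CPM in cop1-4 against 172 ± 2.7 CPM in Col-0 (1.69 and 1.18, edgeR, adjusted p = 1.07e-20 and 3.67e-17), and KAC1, a kinesin-like protein of the same process, had 252 ± 5.6 CPM in spaQ against 115 ± 3.2 CPM in Col-0 (1.14, edgeR, adjusted p = 9.81e-18). In cop1-4 CHUP1 was the only one called (10.7% of all genes were called higher), with 5 higher and 1 lower past the test, against 36.4% and 36.6%. As given above, the green cotyledon markers were also higher in both mutants.

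The remaining lists were mixed or still. Of 8 other NRL family genes, 2 were called higher and 1 lower in spaQ, against 15% and 17.5% of all genes, and 3 higher and 1 lower in cop1-4, against 10.7% and 13.1%. DOT3, a member acting in vein and shoot patterning, had 43 to 71 reads in spaQ libraries and 108 to 150 reads in cop1-4 libraries against 0 to 7 reads in Col-0 libraries. SETH6, described in pollen, had 2.65 ± 0.15 CPM in spaQ against 10.5 ± 0.13 CPM in Col-0 (-1.99, edgeR, adjusted p = 2.84e-14), and NPY4, of a group acting with PID in organ formation, had 6.35 ± 0.86 CPM in cop1-4 against 2.75 ± 0.91 CPM in Col-0 (1.22, edgeR, adjusted p = 7.69e-07). DOT3 was also the 1 called between spaQ and cop1-4, where 8.52% of all genes were called. It had 2.83 ± 0.66 CPM in spaQ against 7.47 ± 1.1 CPM in cop1-4 (-1.40, edgeR, adjusted p = 6.45e-07). Of 6 genes of stomatal opening, 1 was called higher and 1 lower in each mutant, against the same shares of all genes. BLUS1, a phototropin substrate kinase of guard cells, had 10.8 ± 2.9 CPM in spaQ and 9.28 ± 0.79 CPM in cop1-4 against 2.48 ± 0.25 CPM in Col-0 (2.12 and 1.89, edgeR, adjusted p = 6.16e-12 and 2.21e-10). The 5 stomatal lineage and guard cell markers summed to 79.6 to 81.9 CPM in spaQ and 90.4 to 92.3 CPM in cop1-4 against 66.4 to 69.0 CPM in Col-0. Among them FAMA averaged 13.5 CPM in spaQ and 14 CPM in cop1-4 against 4.53 CPM in Col-0, MYB60 26.3 and 23.1 CPM against 9.82 CPM, and KAT1 13.0 and 12.9 CPM against 34.2 CPM, and their part in the BLUS1 result was not tested. AHA2, a plasma membrane proton pump, had 503 ± 28 CPM in spaQ and 690 ± 15 CPM in cop1-4 against 1667 ± 36 CPM in Col-0 (-1.73 and -1.27, edgeR, adjusted p = 7.77e-21 and 6.2e-18). After red light 1 of the 7 NRL genes tested passed in each line, higher, against 2.89% of all genes in the ΔC line and 5.28% in the FL line. By edgeR or DESeq2 0 were called, against 2.88% and 5% of all genes in edgeR. In each line 2 had an unadjusted p under 0.05, against 13.3% of all genes in the ΔC line and 18.6% in the FL line. Of the stomatal genes 0 passed in either line by edgeR or DESeq2, where 5.16% of all genes passed in the ΔC line and 8.92% in the FL line by edgeR. At an unadjusted p under 0.05 there were 0 of them in the ΔC line and 1 in the FL line. Among CUL3A, CUL3B and RCN1, the ubiquitin ligase and phosphatase partners of NPH3 and the phototropins, only CUL3A passed, lower in cop1-4 than in Col-0 and higher in spaQ than in cop1-4, both short of 2-fold. Of all genes 72.9% and 52.8% passed in those comparisons, and 79.4% passed in spaQ against Col-0, where 0 of the 3 did.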

How the data were processed

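Gene expression in seedlings was measured by RNA-seq in 7 groups of 3 libraries, as raw read counts per gene deposited by the authors in 1 table of 33655 features, without normalization. Per the methods and the submitters' processing notes, reads were checked with FastQC, aligned with TopHat and Bowtie2 to TAIR10 and counted with HTSeq-count 0.8.0, and the authors tested them with DESeq2. Strand use in counting was not given in the sources used here.

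Counts were tested with edgeR 4.0.16 (quasi-likelihood, TMM scaling, filterByExpr, Benjamini-Hochberg over all genes tested, R 4.3.3) in 3 fits: the 9 libraries of spaQ, cop1-4 and Col-0, the 12 of the phyB-GFP lines, and all 21 for lines against Col-0 and for levels. The limits were an adjusted p under 0.05 with an absolute log2 fold change over 1, or over 1.5-fold within the lines, and no fold limit for the difference in response. The SE was taken from the fold change and the F statistic. Genes with too few reads were left out, which removed none of the 8. A detection floor of 3 counts was used, and intervals beyond the replicate spread were not computed. The script was tested on simulated data. Of 100 genes changed 2-fold, 94% passed an adjusted p of 0.05 for spaQ against Col-0 and 86% for red against dark in the FL line. Another 100 genes were changed by 2 on the log2 scale, and no other genes. Of all genes that passed there, 8.96% and 3.14% had not been changed. Far fewer genes were changed in the simulation than passed in spaQ against Col-0, so these shares do not carry over to that comparison. RPKM used exon or coding lengths of the RefSeq TAIR10.1 annotation, from which positions and promoters also came. Protein sequences were not used here.

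The 8 genes and the pathway and marker lists were chosen with earlier results of these data known. All 8 are named whatever their values, and of each pathway list the 2 called genes with the largest change per comparison are named, beside counts over the list. PIN3 and PMI1 also appear among the 3 genes most alike in pattern. Alternatives were other scalings, filters and fold limits, DESeq2 1.42.0, other sets of libraries, a replicate block and leaving out each library. Deviations of same-numbered libraries were compared between the groups of each comparison: all 3 correlations were over 0.1 between cop1-4 and Col-0 (0.131 to 0.296) and between ΔC dark and FL dark (0.102 to 0.420), and in no other comparison. Coding length and the counts without FL red replicate 3 were added after seeing the data.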

Additional observations from a re-analysis of the deposited data

Results flagged for a closer look

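The response of RPT2 to 1 h of red light differed between the phyB-GFP lines by a test of the difference itself, at -0.96 on the log2 scale (ΔC response minus FL response, SE 0.121, edgeR, adjusted p = 0.00741). The response of PKS1 differed in the same way, at -0.61 (SE 0.101, edgeR, adjusted p = 0.0446). The difference for PKS1 was past the threshold only narrowly: leaving out any 1 of 10 of the 12 libraries gave an adjusted p of 0.0518 to 0.189 in edgeR, and the replicate block gave 0.107, whereas RPT2 passed under each of these. In both cases every ΔC red library lay below every FL red library.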

How the results depend on the processing

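Results were recomputed under other scalings, filters, fold limits, tools and sets of libraries. The number of the 8 genes called moved by over 1.5 times as follows. With no fold limit it was 8 in spaQ and 8 in cop1-4 against Col-0, 7 between spaQ and cop1-4, 2 between the lines under red light, and 7 in each line against Col-0. With the fold limit as the methods write it, it was 1 in spaQ, 0 between the lines under red light and 0 in each line against Col-0. With library size alone it was 5 in spaQ, and the higher calls over all genes were 2182 of 6681 in spaQ (main 3059 of 6630) and 1618 of 5017 in cop1-4 (main 2173 of 4850). PHOT2 in cop1-4 turned to -0.0081 under that scaling (edgeR, adjusted p = 0.882). With the replicate block 1 gene kept a difference in response, since PKS1 had an adjusted p of 0.107 in edgeR. Same-numbered libraries deviated together in cop1-4 against Col-0 and in ΔC dark against FL dark, where the block changed no call of the 8 and gave 4846 calls over all genes (main 4850) and 189 (main 243). In the other comparisons, the difference in response included, they did not, with a lowest correlation of -0.11 among spaQ, cop1-4 and Col-0 and -0.68 among the lines, and the block changed no call of the 8 but that of PKS1.

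Leaving out 1 library gave 3 to 3 genes called in spaQ, 2 to 2 in cop1-4, 0 to 0 between them, 2 to 3 in ΔC and 4 to 5 in FL after red light, 0 to 0 between the lines in darkness, 0 to 1 between them under red light, 1 to 2 for the difference in response, 3 to 3 in ΔC and 2 to 3 in FL against Col-0. It turned the sign of 13 values near 0, none of which passed the test in edgeR, and these results ran over the left-out libraries from -0.104 to 0.0011 (PHOT1) and -0.0214 to 0.0735 (NPH3) between the lines in darkness, from -0.127 to 0.0839 (PHOT2) and -0.0729 to 0.0342 (PKS4) between them under red light, and from -0.0227 to 0.071 (NPH3) and -0.112 to 0.0189 (PKS2) for the difference in response. The difference in response was called for 21 genes in edgeR, 80 in DESeq2, 105 in one fit of all 21 libraries, 32 with every gene of at least 1 count, 9 with the replicate block and 6 to 38 without 1 library, and the cause was not tested. RPT2 in cop1-4 (edgeR, adjusted p = 0.184), PKS2 in cop1-4 (0.107) and PKS4 in the FL line (0.0614) did not pass in one fit of all 21 libraries. Depth limits PKS3 in the dark lines, where 13 to 43 reads were counted.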
